A study of Mus musculus with 8 samples.

Results

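The blood vessels of the brain were followed here through 35 genes of the endothelium, the cell layer that lines them and forms the blood-brain barrier. The 35 were listed by name, a choice made with earlier results of these data known, and all 35 were found among the 54446 genes of the count table. None stood at 0 in every library, and all 35 passed the filter on low counts, so each is among the 17395 genes tested. The brain endothelium is sealed by tight junctions and adherens junctions. It carries glucose, amino acids, iron and lipids across by dedicated transporters, and pumps many drugs back into the blood. Vascular growth factor receptors keep these cells alive, and Wnt/beta-catenin signals from neural tissue keep the barrier program switched on.

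The libraries come from mice with a gene trap, an inserted cassette that interrupts a transcript, in Scn2a, the gene of the sodium channel NaV1.2. WT stands for 4 wild-type samples and HOM for 4 samples homozygous for the allele (Scn2agt/gt), littermates from heterozygous pairs, with the strain given as C75BL6 and no treatment. Sex and age of the single animals are not given in the labels, and the study's title calls the mice adult. The allele is carried by every cell of the animal, so a change in vessels cannot be placed in the endothelium itself, and the labels do not say that each sample is a separate mouse. The p-values then measure the spread between these samples, which may be technical among some of them.

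The source is labelled neuron, but transcripts of other brain cells were abundant. In WT the astrocyte transporter gene Slc1a2 stood at 3319 ± 147 CPM (a gene's count relative to its library's total, scaled by the TMM method) and the myelin gene Mbp at 2141 ± 408 CPM (SD, n = 4 for each). The defining endothelial markers Cldn5, Flt1 and Cdh5 were present in every library, the lowest raw count of any of the 3 being 266. Their presence does not show that members made by other cells too, such as Tfrc and Bsg, report on vessels. Total counts lay between 27993412 and 37538988 per library. Values by library are given in replicate order, 1 to 4, and WT3 stands for WT replicate 3 and so on. Scn2a was at 477, 371, 477 and 415 CPM in WT and at 122, 147, 131 and 112 CPM in HOM, which matches the labels (log2 fold change -1.77, SE 0.10, edgeR adjusted p = 1.16e-05). A pair of libraries stood apart. WT replicate 4 held 1790 CPM of choroid plexus marker transcripts against 155 to 444 CPM in the other WT libraries, and HOM replicate 4 held 2 counts of 4 Y-linked genes against 4452 to 5984 in the rest. By these Y-linked counts HOM replicate 4 appears female and the rest male. It would then not be the same animal as the other HOM samples, and sex would be mixed within HOM only.

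Endothelial genes were lower in HOM across the list. Of the 35, 12 fell and the other 23 did not pass the threshold of 0.05 on the adjusted p (edgeR quasi-likelihood test over all 17395 genes), and no member rose. The background of that test was 2.94% of all genes lower and 2.47% higher. With upper-quartile scaling the split over all genes was 539 higher and 355 lower, and with library totals alone 844 higher and 286 lower, beside 429 and 511 here. Under these scalings 8 and 7 members were lower (2.04% and 1.64% of all genes), and all 35 log2 fold changes stayed below 0. At an unadjusted p under 0.05, 23 members were lower and 0 higher, against 12.5% of all genes lower, and DESeq2 called 16 lower and 0 higher (6.15% of all genes lower by that tool). The log2 fold change was below 0 for all 35 members and for 49.8% of genes tested. The median over the members was -0.33, from -0.67 for Ptprb to -0.07 for Erg, beside 0.00 for all genes. The HOM libraries lay wholly below the WT libraries at 14 of the 35 members and at 7.47% of genes tested. These were the 12 called genes, Kdr and Sox18. In bulk RNA, fewer endothelial cells and less RNA per endothelial cell cannot be told apart.

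**Figure D1:**
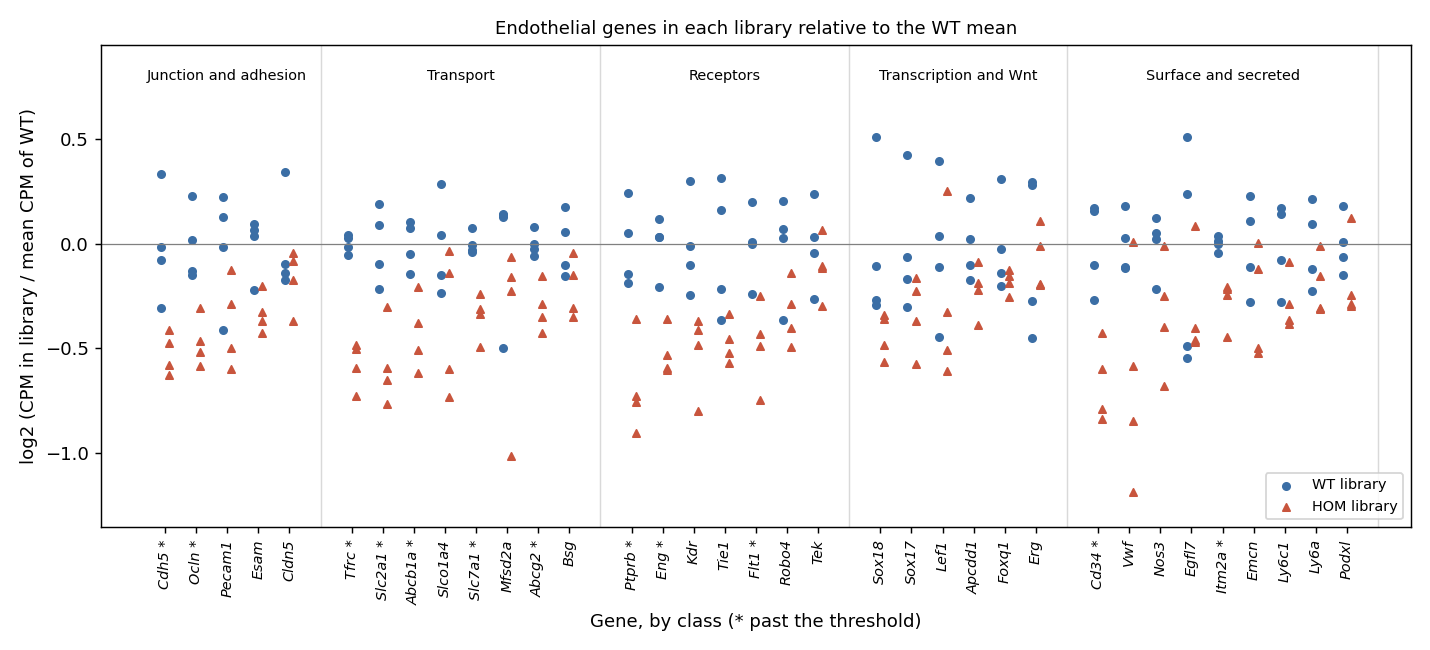
Each point is the log2 ratio of one library's CPM to the mean CPM of WT for one gene, with genes on the horizontal axis by class, circles for the 4 WT libraries and triangles for the 4 HOM libraries. HOM points lie mostly below 0 in each of the 5 classes, with no overlap between genotypes at 14 genes.

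The summed level of the 35 genes ran from 1107 to 1148 CPM in WT and from 834 to 919 CPM in HOM. Much of that sum came from Bsg and Tfrc, which other cells make too and which had WT means of 345 and 113.5 CPM. The mean log2 CPM over the members, which gives each gene the same weight, was 4.09, 4.12, 3.98 and 3.92 in the WT libraries and 3.71, 3.73, 3.63 and 3.65 in the HOM libraries. Every HOM library was below every WT library on both measures. WT replicate 4 was the lowest of its group, with 25 of the 35 genes under their WT mean. In HOM replicates 1 to 4, 30, 33, 34 and 35 genes were under it. The SD of this mean over libraries was 0.05 in HOM and 0.095 in WT (n = 4 for each).

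The number of calls depended on which library was left out. Without WT replicates 1, 2, 3 and 4, left out singly, 6, 9, 2 and 11 members were lower (1.49%, 3.38%, 0.646% and 1.62% of all genes). Without HOM replicates 1, 2, 3 and 4 the numbers were 3, 9, 1 and 6 (0.706%, 3.69%, 0.505% and 1.47% of all genes). Without WT replicate 4 and HOM replicate 4 together, 8 members were lower, against 1.15% of all genes, at a median of -0.38. The median over the members stayed between -0.40 and -0.30 in all of these removals, and no member rose in any of them.

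Junction and adhesion genes hold neighbouring endothelial cells together. Of 5 members, 2 fell and 3 did not pass, and the median was -0.37 on the log2 scale. Cdh5 encodes VE-cadherin, the adherens junction protein of endothelium (ENSMUSG00000031871, chromosome 8, 104101625 to 104144511, plus strand, GRCm38). It shares 9.91% of its span with another annotated gene. It stood at 15.7, 12.3, 11.8 and 10.1 CPM in WT and at 8.33, 9.35, 8.96 and 8.08 CPM in HOM. All HOM values were below the lowest WT value, and the level fell by 0.52 on the log2 scale (SE 0.13, edgeR adjusted p = 0.0369). Ocln encodes occludin, a membrane protein of tight junctions that epithelia make as well (chromosome 13, 100496507 to 100552718, minus strand). Its levels were 9.19, 8.31, 8.20 and 10.7 CPM in WT and 6.58, 6.36, 7.35 and 6.07 CPM in HOM, with no overlap (log2 fold change -0.46, SE 0.11, edgeR adjusted p = 0.0387).

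Cldn5 encodes claudin-5, the main sealing protein of endothelial tight junctions, and was not among the genes that passed. It was at 14.6, 20.3, 15.01 and 14.2 CPM in WT and at 15.2, 12.4, 14.2 and 15.6 CPM in HOM. Apart from WT replicate 2 the genotypes occupied the same range. Its log2 fold change was -0.16 with a 95% interval from -0.42 to 0.11 (edgeR adjusted p = 0.467). The value for Ocln, -0.46, lies just outside that interval, but its own 95% interval, from -0.71 to -0.22, overlaps that of Cldn5. The difference between these genes was not tested. The adhesion genes Esam (from 12.1 to 9.66 CPM, edgeR adjusted p = 0.0664) and Pecam1 (from 15.9 to 12.3 CPM, edgeR adjusted p = 0.140) had log2 fold changes of -0.33 and -0.37. Cdh5 passed only in the removals of WT replicate 4 and of HOM replicate 2 (edgeR adjusted p from 0.0255 to 0.123 over the 8 removals of 1 library), and Ocln only in that of WT replicate 2 (0.0403 to 0.115). Neither passed with upper-quartile scaling or library totals.

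**Figure D2:**
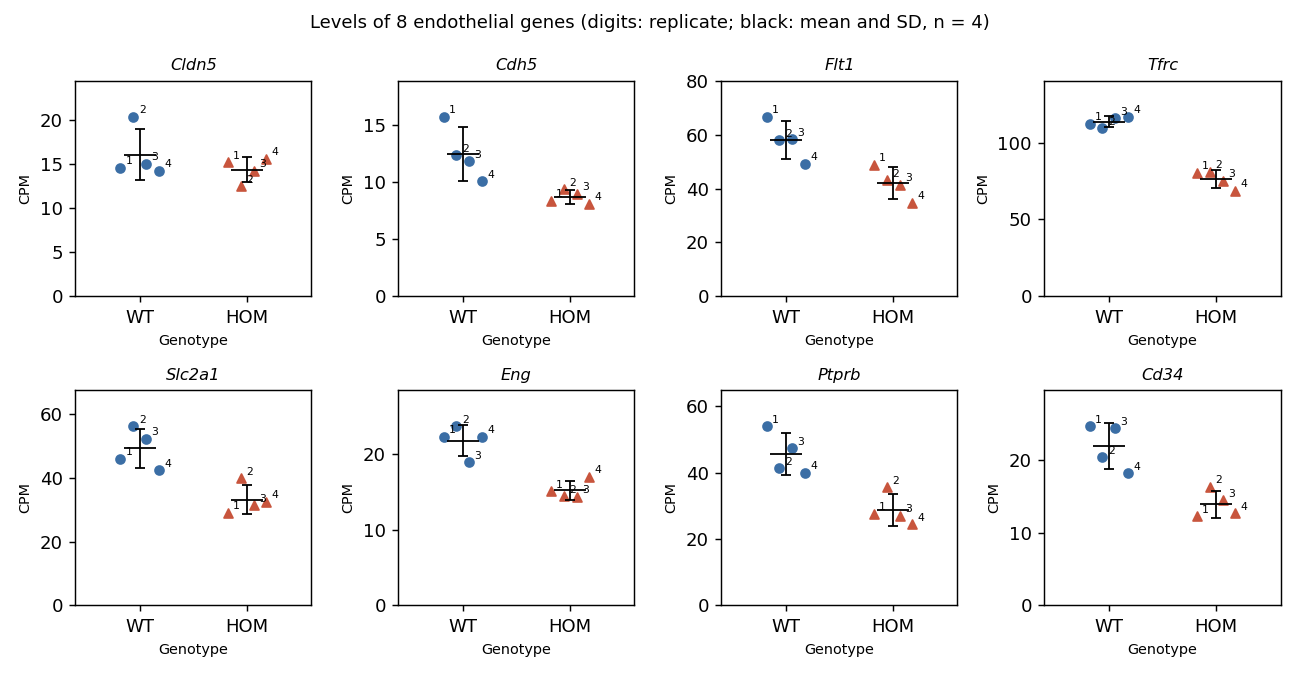
Each panel shows CPM on a linear axis from 0 for one gene in the 4 WT (circles) and 4 HOM (triangles) libraries, the digits giving the replicate and the black marks the mean and SD. Cldn5 overlaps between genotypes, from 14.2 to 20.3 CPM in WT and 12.4 to 15.6 CPM in HOM, while Tfrc is at 109 to 117 CPM in WT and 68.7 to 81.1 CPM in HOM.

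Promoter sequence is shown for these tight junction genes because 1 of them fell and the other did not pass, and for the VEGF receptor genes Flt1 and Kdr described further on. Of the 35 members, 22 had an entry in the RefSeq promoter table (build GRCm38.p6, 250 bases before to 50 after a start). Short words bound by endothelial transcription factor families were searched on both strands: CCGGAA for ETS factors such as Erg, ATTGTT for SOX factors, and ATCAAAG and TTCAAAG for LEF1/TCF factors. Each line gives the 250 bases upstream of the start, 5′ to 3′ on the gene's strand, with a match to one of these words in capitals. The stretches are chr13:100552719-100552968 on the minus strand for Ocln, chr16:18776597-18776846 on the plus strand for Cldn5, chr5:75978456-75978705 on the minus strand for Kdr and chr5:147726012-147726261 on the minus strand for Flt1.
Ocln: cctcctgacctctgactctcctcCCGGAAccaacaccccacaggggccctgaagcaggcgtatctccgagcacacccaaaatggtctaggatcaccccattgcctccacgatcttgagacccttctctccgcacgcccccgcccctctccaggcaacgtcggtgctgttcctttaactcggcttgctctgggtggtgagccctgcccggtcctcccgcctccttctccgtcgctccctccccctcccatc
Cldn5: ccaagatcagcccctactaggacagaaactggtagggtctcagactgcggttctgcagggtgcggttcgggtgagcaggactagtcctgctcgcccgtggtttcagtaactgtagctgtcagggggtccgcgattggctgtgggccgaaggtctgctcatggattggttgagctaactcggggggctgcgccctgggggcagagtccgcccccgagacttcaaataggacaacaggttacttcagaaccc
Kdr: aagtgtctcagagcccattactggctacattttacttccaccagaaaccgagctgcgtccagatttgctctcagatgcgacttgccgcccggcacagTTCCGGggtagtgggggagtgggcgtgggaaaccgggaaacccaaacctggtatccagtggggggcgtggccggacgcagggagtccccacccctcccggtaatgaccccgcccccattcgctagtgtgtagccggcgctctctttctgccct
Flt1: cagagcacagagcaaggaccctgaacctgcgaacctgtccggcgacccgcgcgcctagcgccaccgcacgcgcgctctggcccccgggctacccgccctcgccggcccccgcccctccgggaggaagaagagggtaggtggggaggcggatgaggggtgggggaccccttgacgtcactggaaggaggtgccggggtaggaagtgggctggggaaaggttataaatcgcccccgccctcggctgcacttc
Ocln carries 1 ETS word and Kdr carries 1, read on the opposite strand as TTCCGG. The stretch of another listed Ocln start, chr13:100552499-100552748 on the minus strand and not printed, carries none of the 4 words. The Cldn5 and Flt1 stretches carry none of the 4 words, which says only that those letters are not in these windows. Counting all 300 bases and all listed starts, CCGGAA was present for 2 of 22 members and for 16.7% of all 27025 genes in the table. ATTGTT was present for 5 members (12.2% of all genes), ATCAAAG for 2 (4.29%) and TTCAAAG for 2 (5.93%). A match is a description of the letters and not a binding site.

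Transport genes made up most of the members with high counts. Of 8, 5 fell and 3 did not pass, at a median log2 fold change of -0.34. Tfrc encodes the transferrin receptor, which takes up iron and is made by brain endothelium and also by neurons (chromosome 16, 32608920 to 32632794, plus strand). It stood at 112, 109, 116 and 117 CPM in WT and at 80.1, 81.1, 75.2 and 68.7 CPM in HOM. The gap between the genotypes was far wider than the spread within either, and HOM held 67.2% of the WT level (log2 fold change -0.57, SE 0.07, edgeR adjusted p = 0.00119). Tfrc was the only member to pass in all 8 removals of 1 library. Slc2a1 encodes GLUT1, the glucose carrier of the barrier, which glia and choroid plexus use too. It lies on chromosome 4, 119108711 to 119137983, plus strand, and shares 17.1% of its span with other annotated genes. Its levels were 45.9, 56.1, 52.3 and 42.3 CPM in WT and 29.0, 39.8, 31.3 and 32.5 CPM in HOM. HOM replicate 2 came closest to WT but stayed below it (log2 fold change -0.57, SE 0.11, edgeR adjusted p = 0.0180).

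Slc7a1, which encodes the cationic amino acid carrier CAT1, was at 55.4, 55.0, 59.6 and 56.4 CPM in WT and at 44.9, 48.0, 45.6 and 40.3 CPM in HOM. The WT libraries were close together and all HOM libraries lower, a fall of 0.34 on the log2 scale (SE 0.07, edgeR adjusted p = 0.0202). Both efflux pump genes fell. Abcb1a, which encodes a P-glycoprotein and has the near relative Abcb1b, was at 29.9, 26.8, 29.2 and 25.1 CPM in WT and at 21.4, 24.04, 19.5 and 18.1 CPM in HOM (log2 fold change -0.42, SE 0.10, edgeR adjusted p = 0.0319). Other annotated genes share 8.73% of the Abcb1a span. Abcg2, which encodes the breast cancer resistance protein, was at 22.6, 22.2, 23.9 and 21.7 CPM in WT and at 18.5, 20.3, 17.7 and 16.8 CPM in HOM (log2 fold change -0.30, SE 0.08, edgeR adjusted p = 0.0480). HOM values of both pumps lay below all WT values.

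The other transport genes did not pass. Mfsd2a, which encodes the carrier of lysophosphatidylcholine lipids, was at 14.7, 22.7, 22.6 and 22.8 CPM in WT and at 10.2, 18.5, 17.7 and 19.8 CPM in HOM, so replicate 1 was low in both groups (log2 fold change -0.32, 95% interval -0.74 to 0.10). Slco1a4, which encodes an organic anion carrier, had means of 59.0 and 46.4 CPM (-0.35, interval -0.68 to -0.01, edgeR adjusted p = 0.203). Bsg, which encodes basigin, a partner of lactate carriers found on many cell types, had means of 345 and 299 CPM (-0.21, interval -0.40 to -0.01, edgeR adjusted p = 0.190). Over the removals of 1 library, Slc2a1 and Slc7a1 did not pass in the removals of WT3, HOM1 and HOM3 (edgeR adjusted p from 0.0071 to 0.0758 and from 0.0193 to 0.0759). Abcb1a did not pass without any of these, WT replicate 1 or HOM replicate 4 (0.0185 to 0.116), and Abcg2 passed only without HOM replicate 2 (0.0328 to 0.155). Abcg2 also did not pass with RLE scaling, upper-quartile scaling, library totals, no filter or a minimum of 1 CPM, which leaves 4 transporter calls in each of these.

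Receptors for growth and guidance signals had the largest median of the classes, -0.47, with 3 of 7 lower and 4 that did not pass. Classes were not tested against each other. Ptprb encodes VE-PTP, a phosphatase that dampens the angiopoietin receptor TIE2 (chromosome 10, 116275523 to 116389535, plus strand). It was at 54.0, 41.3, 47.4 and 40.1 CPM in WT and at 27.6, 35.6, 27.1 and 24.5 CPM in HOM, and HOM held 62.8% of the WT level. This was the largest fall among the members (log2 fold change -0.67, SE 0.12, edgeR adjusted p = 0.0141). Eng encodes endoglin, a co-receptor for ligands of the TGF-beta and BMP families (chromosome 2, 32646595 to 32682669, plus strand). It was at 22.2, 23.6, 18.9 and 22.3 CPM in WT and at 15.1, 14.4, 14.3 and 16.9 CPM in HOM, with no overlap (-0.52, SE 0.09, edgeR adjusted p = 0.0121).

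Flt1 encodes VEGFR1, a VEGF receptor that also acts as a decoy (chromosome 5, 147561604 to 147726011, minus strand). Its levels were 66.7, 58.0, 58.4 and 49.2 CPM in WT and 48.9, 43.1, 41.4 and 34.6 CPM in HOM. The groups are separated by only the small step from 48.9 to 49.2 CPM, although their means differ by 0.47 on the log2 scale (SE 0.11, edgeR adjusted p = 0.0345). Kdr, which encodes the main signalling VEGF receptor VEGFR2, had a fold change of the same size without passing: 10.6, 8.54, 7.27 and 8.02 CPM in WT against 6.67, 4.95, 6.48 and 6.16 CPM in HOM (-0.51, SE 0.14, edgeR adjusted p = 0.0541). It lies just outside the threshold, as Abcg2 and Itm2a (0.0480 and 0.0485) lie just inside. The angiopoietin receptor genes differed in value. Tie1 had means of 10.9 and 7.92 CPM (-0.47, SE 0.14, edgeR adjusted p = 0.0750), and Tek, which encodes TIE2, 19.1 and 17.7 CPM (-0.11, 95% interval -0.35 to 0.13). Robo4, a guidance receptor gene of endothelium, had means of 5.18 and 4.14 CPM (-0.33, edgeR adjusted p = 0.210).

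Eng passed in 7 of the 8 removals of 1 library, all but that of HOM replicate 3 (edgeR adjusted p from 0.0145 to 0.0602). Ptprb did not pass in the removals of WT3, HOM1 and HOM3 (0.00448 to 0.0658). Flt1 passed only without WT replicate 2 or WT replicate 4 (0.0297 to 0.115).

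**Figure D3:**
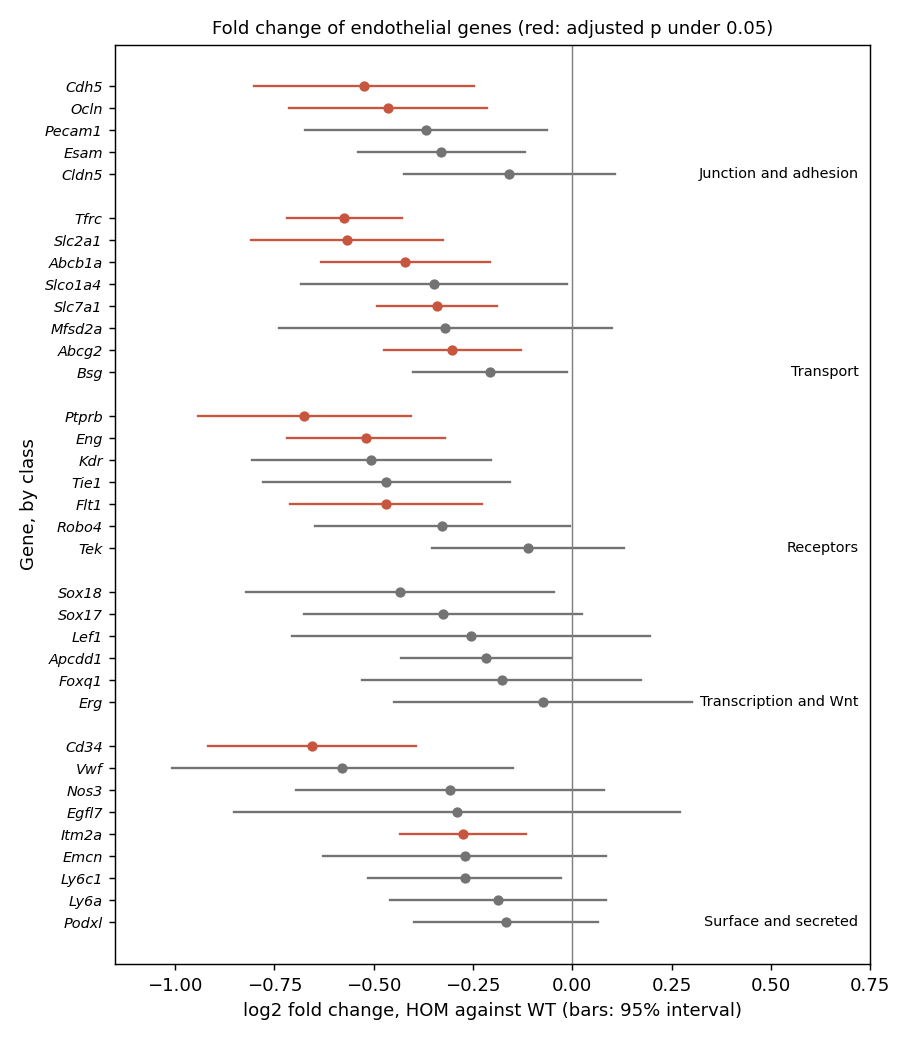
Points are log2 fold changes of HOM against WT for the 35 genes by class, with 95% intervals from the edgeR fit, and red marks an adjusted p under 0.05. All 35 points are below 0, from -0.67 to -0.07, and several grey intervals, such as that of Tek, reach above 0.

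Transcription factor and Wnt target genes were the class in which no member passed, with a median of -0.24 over 6 genes (edgeR; 2 lower at an unadjusted p under 0.05, and 0 called by DESeq2 or limma-voom). Sox18 and Sox17 encode related SOX factors of vascular development. Sox18 was at 5.25, 8.04, 4.62 and 4.69 CPM in WT and at 3.82, 4.04, 4.40 and 4.46 CPM in HOM (-0.43, 95% interval -0.82 to -0.05, edgeR adjusted p = 0.168), without overlap but with WT replicate 2 well above the rest. Sox17 had means of 7.24 and 5.78 CPM (-0.33). Erg, an ETS factor that maintains endothelial identity, had means of 5.97 and 5.70 CPM (-0.07, interval -0.45 to 0.30). The Wnt-responsive genes Lef1, Apcdd1 and Foxq1 had log2 fold changes of -0.26, -0.22 and -0.18. Lef1 is also made by some neurons, and its sign turned to 0.01 when both replicates 4 were left out. The standard errors of the class ran from 0.10 to 0.21, against 0.07 to 0.13 for the 12 called members, and the ranges overlap.

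Surface and secreted proteins gave 2 lower members of 9, with 7 that did not pass and a median of -0.28. Cd34 encodes a sialomucin of endothelium and blood progenitors (chromosome 1, 194938819 to 194961279, plus strand, with 24.6% of its span shared with another annotated gene). It was at 24.7, 20.4, 24.4 and 18.2 CPM in WT and at 12.3, 16.3, 14.5 and 12.7 CPM in HOM. Each HOM library was below the lowest WT library, and HOM held 63.6% of the WT level (log2 fold change -0.65, SE 0.12, edgeR adjusted p = 0.0141). Itm2a, a membrane protein gene on chromosome X (107397099 to 107403376, minus strand), was at 36.7, 37.5, 35.5 and 36.9 CPM in WT and at 31.6, 31.8, 26.9 and 30.9 CPM in HOM (-0.28, SE 0.07, edgeR adjusted p = 0.0485). Cd34 did not pass in the removals of WT3, HOM1 and HOM3 (edgeR adjusted p from 0.00854 to 0.0603). Itm2a did not pass in any of the 8 removals (0.0556 to 0.164).

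Vwf, the gene of the clotting protein von Willebrand factor, was at 17.7, 19.5, 17.7 and 21.7 CPM in WT and at 19.3, 10.7, 8.43 and 12.8 CPM in HOM. HOM replicate 1 sat within the WT range while the other HOM libraries were below it (-0.58, SE 0.20, edgeR adjusted p = 0.103). Without HOM replicate 1 the value was -0.84 and Vwf passed (edgeR adjusted p = 0.0223, from 0.0223 to 0.248 over the removals of 1 library). Ly6c1 and Ly6a, which belong to a family of similar genes among which reads can be split, had log2 fold changes of -0.27 and -0.19. Emcn, Podxl, Egfl7 and Nos3, which encode endomucin, podocalyxin, a matrix protein and the endothelial nitric oxide synthase, had -0.27, -0.17, -0.29 and -0.31. Egfl7 and Nos3 were near 2 CPM, and 49.5% and 90.1% of their spans are shared with other genes, as is 66.1% of that of Foxq1, so these 3 values are uncertain.

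The same vascular pathways were read through 5 further lists that hold none of the 35. Of 115 genes tested in them, 11 fell, 1 rose and 103 did not pass, at a median of -0.18. As for Tfrc and Bsg, a place in these lists does not show that a gene reports on vessels. WT means reached 564.8 CPM for Lrp1, 401.6 CPM for Shank3 and 144.4 CPM for Tjp1, beside 12.45 CPM for the endothelial marker Cdh5. The share of such transcripts made by endothelium was not tested, so the list medians cannot be read as values of endothelial cells alone. Over all genes 2.94% were lower and 2.47% higher. By adjusted p alone, the lists with 1 call among 20 to 26 genes lie near that share. At an unadjusted p under 0.05, 7 of 20 junction, 8 of 26 VEGF and 5 of 21 Wnt genes were lower (edgeR). In these lists 1, 1 and 0 genes were higher, and 12.5% of all genes were lower. Log2 fold changes below 0 numbered 15, 19 and 17, against 49.8% of all genes. Among junction genes 1 of 20 fell (median -0.12). It was Lsr, a tricellular junction gene (from 4.67 to 3.20 CPM, log2 fold change -0.55, edgeR adjusted p = 0.0336). A fraction of 0.245 of the Lsr span is shared with other genes. Among other transporters 2 of 21 fell (median -0.12): the thyroid hormone carrier gene Slco1c1 (from 49.5 to 37.2 CPM, -0.41, edgeR adjusted p = 0.0172) and the organic anion carrier gene Slc22a8 (-0.52, edgeR adjusted p = 0.0336). In the VEGF, angiopoietin, BMP and Notch list 1 of 26 fell (median -0.17). This was Acvrl1, which encodes ALK1, the BMP receptor that works with endoglin (from 14.3 to 9.39 CPM, -0.61, edgeR adjusted p = 0.0285). Of the Wnt and norrin pathway 1 of 21 fell (median -0.09), Fzd4, which encodes the norrin receptor (from 19.2 to 12.4 CPM, -0.63, edgeR adjusted p = 0.0367).

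Of 27 other endothelial genes 6 fell and 1 rose (median -0.29). Klf4, a flow-responsive transcription factor gene that many cells also induce quickly, went from 5.97 ± 1.09 to 3.23 ± 0.227 CPM (SD, n = 4 each), a fall of 0.88 on the log2 scale (SE 0.15, edgeR adjusted p = 0.0112). It passed in all 8 removals of 1 library and all 12 other alternatives. Palmd (-0.45), She (-0.65) and the adhesion receptor gene Adgrf5 (-0.57) fell too. Of the remaining calls, named after their values were seen, the flow-responsive Klf2 (-0.71) and Slfn5 (-0.68) fell, and Plvap rose from 7.73, 7.19, 6.55 and 5.83 CPM in WT to 9.49, 8.75, 8.96 and 9.18 CPM in HOM (0.41, SE 0.11, edgeR adjusted p = 0.0455). Slfn5 shares a fraction of 0.692 of its span with another gene, so its value is uncertain. Plvap encodes a diaphragm protein of fenestrated vessels, which mature barrier endothelium keeps low. Its call held without WT replicate 1 and was lost in the other 7 removals (edgeR adjusted p from 0.0448 to 0.129).

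The calls of these lists thinned when libraries were removed. The reported fit had 11 lower and 1 higher over the 5 lists. The total was 4, 10, 2 and 8 without WT replicates 1, 2, 3 and 4, left out singly. It was 3, 11, 1 and 7 without HOM replicates 1, 2, 3 and 4, and 7 without both replicates 4. Calls over all genes, 940 in the reported fit, were 527, 957, 181 and 482 in the WT removals. They were 212, 1187, 180 and 552 in the HOM removals and 335 without both replicates 4. With 1 library left out, Slco1c1 was lost without HOM replicate 3 alone (edgeR adjusted p from 0.0184 to 0.0785), and it was also lost without both replicates 4 and with the choroid plexus covariate described further on. Acvrl1 was lost in the removals of WT1, WT3, HOM1 and HOM3 (0.0197 to 0.102), and Slc22a8 without any of these or WT replicate 4 (0.00467 to 0.111). Fzd4 was lost without any of those 5 libraries or HOM replicate 4 (0.00287 to 0.129), and Lsr in every removal but that of HOM replicate 2 (0.0370 to 0.116). Palmd was lost in the removals of WT3, HOM1 and HOM3 (0.0187 to 0.0591). She and Adgrf5 were lost without those, WT replicate 1 or HOM replicate 4 (0.0193 to 0.0829 and 0.0110 to 0.112). Slfn5 passed without WT replicate 2 or 4 (0.0267 to 0.114) and Klf2 only without WT replicate 4 (0.0126 to 0.155).

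Cells that surround the endothelium gave mixed values in short lists, beside 2.94% of all genes lower and 2.47% higher. Of 11 pericyte genes 1 fell, the potassium channel regulator gene Abcc9 (from 9.99 to 6.95 CPM, log2 fold change -0.53, edgeR adjusted p = 0.0250), and the list had a median of -0.13 with sums of 215 to 239 CPM in WT and 181 to 215 CPM in HOM. Of 6 smooth muscle genes 2 fell, Myh11 (-0.74, edgeR adjusted p = 0.0228) and Mylk (-0.59, edgeR adjusted p = 0.0266), at a median of -0.34. Of 8 meningeal fibroblast genes Aldh1a2 fell (-0.69, edgeR adjusted p = 0.0448; median -0.44). Of 10 basement membrane genes Col4a2, a collagen chain of vessel walls, rose from 52.3 to 64.7 CPM (0.31, edgeR adjusted p = 0.0492), and it did not pass with RLE scaling. These calls too were lost in 4 to 7 of the 8 removals of 1 library.

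**Figure D4:**
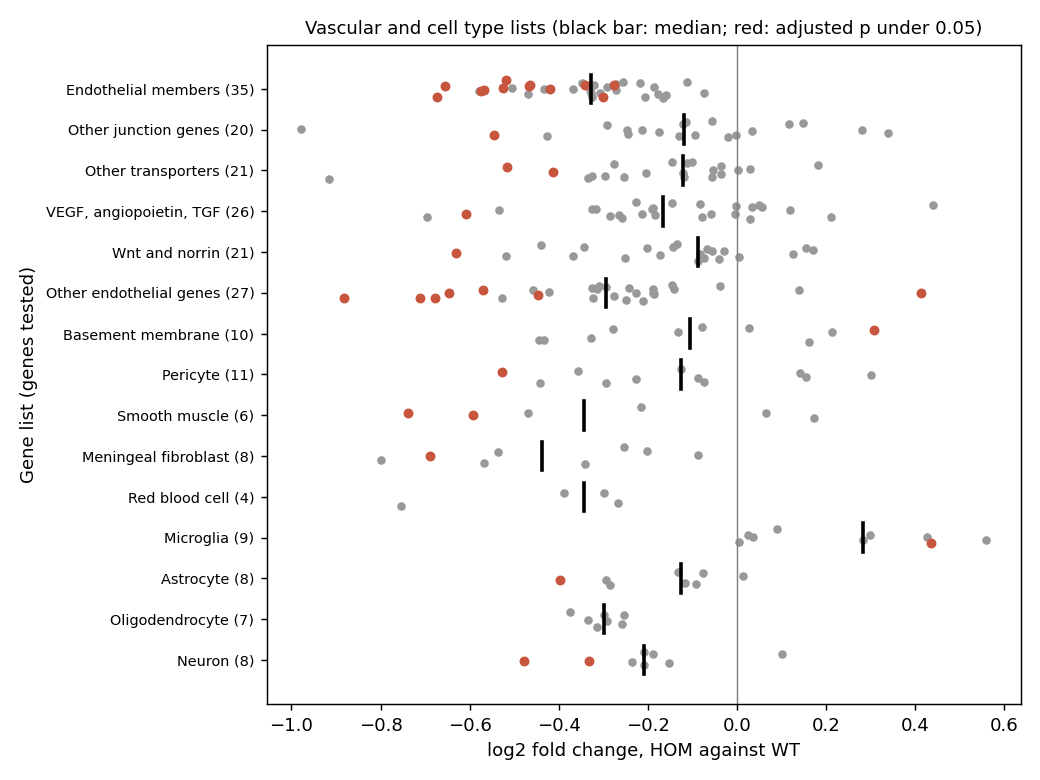
Each point is the log2 fold change of one tested gene, HOM against WT, in the list named at the left with its number of genes, black bars are list medians and red points have an adjusted p under 0.05. The endothelial members have a median of -0.33 and the other endothelial genes -0.29, microglial genes lie at or above 0, and choroid plexus genes, with a median of -2.39, are off the scale and left out.

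Markers of other cells moved with genotype as well, beside 2.94% of all genes lower and 2.47% higher in the reported fit. All 13 choroid plexus markers tested were lower in value in HOM and 5 passed (median -2.39). The number called was 9 with DESeq2, where 6.15% of all genes were lower, and 13 with no filter (516 of 27890 genes). It was 1 with limma-voom or robust quasi-likelihood (522 and 536 of 17395 genes). Without WT replicate 4 it was 0, at a median of -1.41, and over all removals of 1 library it ran from 0 to 8. Their sum was 444, 367, 155 and 1790 CPM in WT and 244, 20.7, 37.1 and 24.5 CPM in HOM. WT replicate 4 was far above the rest, and HOM replicate 1 lay between WT replicates 2 and 3. With the mean choroid plexus level as a covariate, which shares much of its spread with genotype, 2 members passed, Slc2a1 and Cd34 (0.161% of all genes were lower), at a member median of -0.40. Choroid plexus has vessels of its own, and its part in the endothelial values was not tested.

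Of 8 neuronal markers 2 fell, Snap25 and Gad1 (list median -0.21), and of 8 astrocyte markers 1 fell, Aqp4 of the endfeet that wrap vessels (from 122 to 92.8 CPM, log2 fold change -0.40, edgeR adjusted p = 0.0417; list median -0.13). No oligodendrocyte marker passed by edgeR, although all 7 were lower at an unadjusted p under 0.05 and 3 were called by DESeq2 (median -0.30). Of all genes, 12.5% and 6.15% were lower by these measures. Of 9 microglial markers 1 rose, C1qa (0.44, edgeR adjusted p = 0.04997, just inside the threshold; median 0.28). At an unadjusted p under 0.05, 5 were higher, and 4 were called by DESeq2 and 3 with library totals alone. Of all 17395 genes, 1802, 830 and 844 were higher by these measures. Sums of the 4 red blood cell genes tested were 59.3, 73.7, 63.2 and 99.8 CPM in WT and 112, 38.6, 37.0 and 46.8 CPM in HOM, so HOM replicate 1 was the highest of all and the other HOM libraries were below every WT library. No gene of that list passed (edgeR; 0 at an unadjusted p under 0.05 and 0 by DESeq2; median -0.34). Without HOM replicate 1 the median was -0.87 and 1 gene was lower, the alpha globin gene Hba-a1 (named after its values were seen). Over all lists 15 genes were at 0 in every library, such as Gfap of astrocytes, P2ry12 of microglia and Kcnj13 of choroid plexus, and each of these 3 lies wholly inside the span of another gene. Gad1 passed in all 8 removals of 1 library, and the other 8 calls among choroid plexus, neuronal, astrocyte and microglial markers passed in 2 to 5 of them. What share of the endothelial values goes with a changed mix of cells was not tested.

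**Figure D5:**
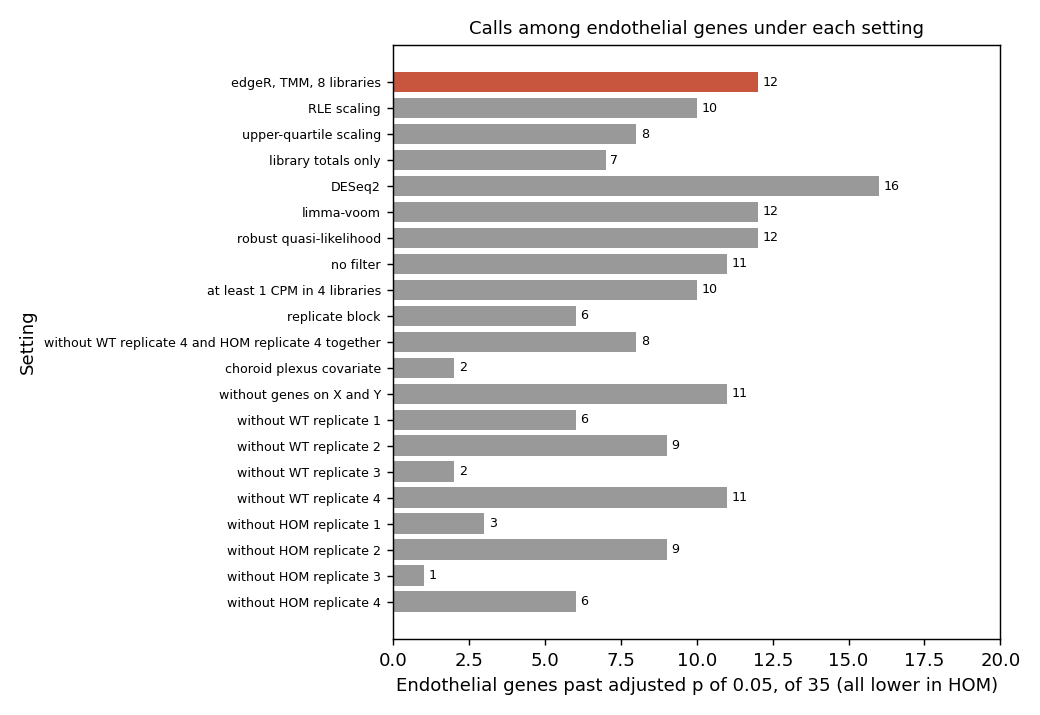
Bars give the number of the 35 endothelial genes with an adjusted p under 0.05, all lower in HOM, under the reported fit (red) and each alternative (grey). The count runs from 1 without HOM replicate 3 to 16 with DESeq2, beside 12 in the reported fit.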

How the data were processed

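Total RNA was sequenced paired-end after a stranded library preparation, per the labels' protocols. The authors deposited raw counts per gene; the submitters' processing notes name FastQC 0.11.3, STAR, featureCounts, edgeR and the build GRCm38, but neither further versions nor the annotation or strand option. Of 54446 gene IDs 54409 matched GENCODE M21. Of 1280 protein-coding genes lying inside another gene 1261 stood at 0 (98.5%), against 13.5% of those not nested, so the counts appear to have been taken from each gene's full span, leaving out reads shared by genes, which lowers overlapping genes. Counts were filtered with filterByExpr (minimum count 10, total 15), scaled by TMM and tested with edgeR 4.0.16 (quasi-likelihood, Benjamini-Hochberg adjustment over all 17395 genes, threshold 0.05) in R 4.3.3; the script was tested on simulated data. DESeq2 1.42.0, limma 3.58.1 (voom), other scalings and filters, a replicate block, a choroid plexus covariate and removals of libraries were the 20 alternatives. All 35 genes were described, with values by library for called genes and markers; in other lists those with the smallest p among the called, up to 4 a list, were named. The members and lists were chosen with earlier results of these data known. No 2 libraries of a group agreed within sampling noise. Context genes not tested numbered 19.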

Additional observations from a re-analysis of the deposited data

Results flagged for a closer look

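Of 70 sets of 4 libraries examined (each of the 35 genes in each genotype), 4 held a library far from the other 3 by Dixon's test at the 95% level; chance alone gives about 1 in 20. Cldn5 was at 20.3 CPM in WT replicate 2 and at 14.2, 14.6 and 15.01 CPM in the other WT libraries. Without that library its log2 fold change was -0.02 (edgeR adjusted p = 0.904, from 0.393 to 0.904 over the removals of 1 library). Mfsd2a was at 14.7 CPM in WT replicate 1 and at 22.6, 22.7 and 22.8 CPM in the other WT libraries. In HOM replicate 1, Egfl7 was at 2.21 CPM against 1.51, 1.52 and 1.58 CPM in the other HOM libraries, and Podxl at 34.1 CPM against 25.5, 25.7 and 26.5 CPM.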

How the results depend on the processing

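The median log2 fold change of the 35 genes stayed between -0.40 and -0.26 under all 20 alternatives, and Scn2a passed in each. Counts of calls moved more. Among the 35 genes 12 calls became 7 with library totals alone, 6 with the replicate block, 2 with the choroid plexus covariate and 1 to 11 with 1 library left out. Over all genes 940 calls became 1900 with DESeq2, 364 with the block, 335 without both replicates 4, 38 with the covariate and 180 to 1187 with 1 library left out. In the 5 other vascular lists 12 calls became 20 with DESeq2, 6 with the block, 7 without both replicates 4, 1 with the covariate and 1 to 11 with 1 library left out. Junction calls, 2 in all, became 0 with upper-quartile scaling, library totals, the block or the covariate, 1 without both replicates 4, and 0 to 2 with 1 library left out. The 5 transporter calls became 4 with RLE or upper-quartile scaling, library totals, no filter or a minimum of 1 CPM, 2 with the block, 2 without both replicates 4, 1 with the covariate and 1 to 5 with 1 library left out. The 3 receptor calls became 5 with DESeq2, 0 with the covariate and 0 to 4 with 1 library left out. The 2 surface and secreted calls became 1 with RLE or upper-quartile scaling, library totals, no filter, a minimum of 1 CPM, the block, both replicates 4 left out or the covariate, and 0 to 1 with 1 library left out. Without X and Y genes 1 call was left, because Itm2a on chromosome X was not tested there. Only the log2 fold changes of Erg and Lef1, neither of them called, changed sign: Erg ranged from -0.20 to 0.04 with 1 library left out, at 0.04 without WT replicate 1 and 0.03 without WT replicate 2, and Lef1 was at 0.01 without both replicates 4 and 0.44 with the covariate. Of the members' calls, 52 of 96 were lost over the removals of 1 library and 36 of 143 over the other alternatives. Removals leave fewer samples; for the rest the cause was not tested. Same-numbered WT and HOM libraries did not deviate together (correlations of 0.0473, -0.196, -0.00701 and 0.0275), and 0 of 8 libraries correlated best with its own number. No pairing by number was seen, and 4 libraries per group cannot exclude one. Genes near 2 CPM, such as Egfl7 with a lowest count of 40, are limited by depth.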
